A study of Mus musculus with 12 samples.

Results

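High functioning (HF) and low functioning (LF) soleus muscle were compared after laparotomy, an opening of the abdominal wall, in 3 libraries of each. Functioning was set by the performance of the mice on an accelerating rotarod. These are 6 of the 12 libraries of the series, and the comparison took in 10757 of 30323 genes, those with a mean of at least 1 TPM (transcript abundance scaled to a fixed total per library) over the 12 libraries. All groups were soleus of male C57BL/6N mice aged 24 months from an aging colony, housed alone with a running wheel for 8 weeks. LF laparotomy and HF laparotomy muscles were taken 5 days after surgery, and the other 6 libraries, LF control and HF control, came from age-matched controls. Surgery was thus shared by both sides of the comparison, and so was the wheel. Whether each library is a separate mouse is not stated in the labels. The p-values therefore measure the spread among libraries and no more, and that spread may be technical.

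Soleus is a postural muscle of the hind limb, built mainly of slow type 1 and oxidative type 2A fibres that draw on mitochondria, fatty acids and a dense capillary bed. Aging muscle loses oxidative capacity and nerve contact, and an operation adds inflammation and catabolic signals from outside the limb. The results are ordered by energy metabolism, the contractile apparatus, translation, protein turnover, vessels, nerve and immune genes. In bulk muscle, fewer cells of a type and less RNA per cell cannot be told apart.

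The tissue label held against its defining markers: Myh7, Myl2, Myl3, Tnnt1, Tnni1 and Tnnc1, all of slow fibres, lay at 1865 TPM or more in every library. Read depth is unknown, because TPM keeps no counts. Correlations of log2 values between the 6 laparotomy libraries ran from 0.9866 to 0.9914 within HF and from 0.9838 to 0.9885 within LF. LF laparotomy 1 was the LF library nearest to HF, at 0.9832 to 0.9864. Log2 differences below are HF minus LF on log2(TPM + 1), which understates the change of low genes. They are given ± standard error and with the median over all tested genes (-0.192 as deposited) subtracted, while the adjusted p-values of limma test the deposited differences.

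After laparotomy limma called 2796 of 10757 genes (26.0%), of which 161 were higher in HF (1.50%) and 2635 lower (24.5%). The balance between directions moved with the scaling of the libraries. With median-of-ratios size factors 1001 genes were higher (9.31%) and 1154 lower (10.7%), with quantile normalization 43.4% of the calls were higher, and with the mitochondrially encoded genes and any others among the 10 most abundant taken out of the TPM total 24.5% were. Counts with size factors therefore stand beside those of the lists. No overlap between the 3 HF and the 3 LF values was found for 40.5% of the tested genes. The count of calls dropped to 1048 without LF laparotomy 2, 1144 without LF laparotomy 3, 1105 without HF laparotomy 1 and 1078 without HF laparotomy 2, and was 1362 when the 6 laparotomy libraries were fitted alone. Called genes more than 1 log2 unit from the median numbered 10 higher and 57 lower. Unless a limit is given, each gene called below held its call without each of the 12 libraries and in every other setting that tested it.

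**Figure D1:**
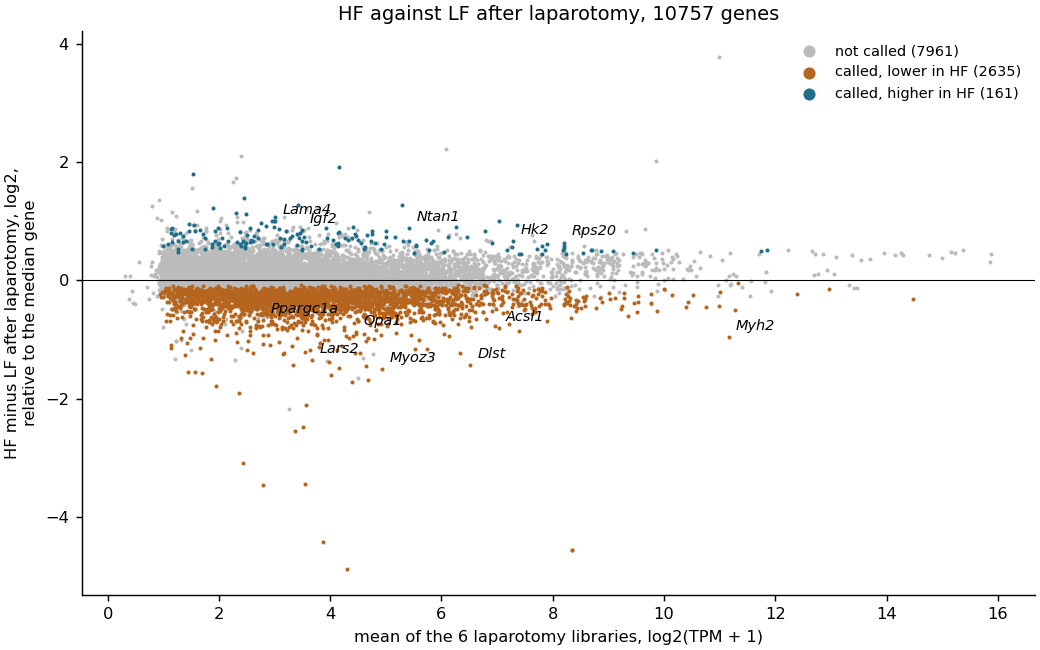
Difference between HF and LF after laparotomy (vertical, log2, relative to the median gene) against the mean level in the 6 laparotomy libraries (horizontal, log2(TPM + 1)), 1 point per tested gene. The 2635 genes called lower lie mostly under 0 and the 161 called higher above it, with genes not called on both sides. The points under -2 carry predicted-gene or pseudogene symbols.

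Predicted genes and pseudogenes aside, the lower gene with the smallest p was Lars2, the synthetase that charges mitochondrial tRNA with leucine. It stood at 14.1, 20.9 and 19.1 TPM in the LF libraries and at 5.04, 5.93 and 5.48 in the HF libraries. Every HF value was under every LF value, and the LF mean was 3.29 times the HF mean (-1.35 ± 0.14, adjusted p = 0.000265). Dlst, the succinyltransferase subunit of the 2-oxoglutarate dehydrogenase complex, stood at 95.4, 146 and 173 TPM in LF against 43.4, 42.2 and 43.4 in HF. The HF libraries lay together while the LF libraries spread, with LF laparotomy 1 the lowest of them (-1.43 ± 0.19, adjusted p = 0.00195). Acsl1, which activates long-chain fatty acids, was at 150, 167 and 202 TPM in LF and at 86.7, 84.1 and 86.3 in HF (-0.80 ± 0.12, adjusted p = 0.00195). Its groups did not overlap, and neither did those of the other leading genes, by the rule that chose them.

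Of the remaining 9 leading genes that were lower in HF, several act in membranes and in the Golgi. Man2a2, a Golgi mannosidase, fell by 1.23 (± 0.18), and Entpd4, a nucleotidase of the Golgi, by 0.99 (± 0.14). Slc41a1 carries magnesium (-0.73 ± 0.12), Pitpnc1 transfers phosphatidylinositol (-0.77 ± 0.12) and Efr3b anchors a phosphatidylinositol kinase at the plasma membrane (-0.97 ± 0.15). Ube3b, a ubiquitin ligase, fell by 1.44 (± 0.20), and Synm, the intermediate filament protein synemin, by 0.92 (± 0.14). Fam129a (-0.91 ± 0.14) and Pm20d2 (-1.18 ± 0.18) complete the set, with adjusted p between 0.00195 and 0.00302 for these 9. Exons of Man2a2 and Synm overlap Hddc3 and Ttc23 on the opposite strand, and Entpd4 has the near-identical copy Entpd4b, so these 3 values are uncertain to that extent.

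By size of the difference the lower genes were led by Snurf, an imprinted gene that shares its transcript with Snrpn and whose value cannot be separated from it here. It read 21.5, 33.9 and 40.6 TPM in LF and 8.15, 5.14 and 10.2 in HF (-1.71 ± 0.27, adjusted p = 0.00302). Gpam, the mitochondrial acyltransferase that starts glycerolipid synthesis, was at 25.3, 43.6 and 49.0 TPM in LF and at 9.77, 7.18 and 12.5 in HF (-1.68 ± 0.27, adjusted p = 0.00302). Pdpr, the regulatory subunit of pyruvate dehydrogenase phosphatase, was at 13.6, 27.7 and 31.4 TPM in LF and at 5.44, 5.47 and 7.10 in HF (-1.59 ± 0.25, adjusted p = 0.00302). In all 3 genes the lowest LF library was LF laparotomy 1, and it still lay above every HF library. Prkg1, the cGMP-dependent kinase, fell by 1.43 (± 0.26, adjusted p = 0.00356).

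Higher in HF was first Ntan1, which deamidates N-terminal asparagine and so marks proteins for degradation. It stood at 54.5, 54.5 and 46.4 TPM in HF and at 34.7, 32.2 and 28.2 in LF, with no overlap (0.88 ± 0.10, adjusted p = 0.00302). Ramp2, the partner with which the calcitonin receptor-like receptor of vessels binds adrenomedullin, was at 29.4, 32.8 and 33.5 TPM in HF against 21.1, 18.6 and 20.4 in LF (0.84 ± 0.10, adjusted p = 0.00309). Igf2, an insulin-like growth factor, was at 12.8, 12.5 and 13 TPM in HF against 7.66, 6.82 and 8.84 in LF (0.85 ± 0.11, adjusted p = 0.00403). The HF libraries of Igf2 were close to each other, at an SD of 0.253 TPM against 1.02 in LF. Lama4, a laminin chain of vessel and muscle basement membranes, was at 7.80, 8.62 and 11.3 TPM in HF against 5.58, 4.26 and 4.64 in LF (1.0 ± 0.16, adjusted p = 0.00669). Fas, a death receptor of the tumour necrosis factor receptor family, was at 5.87, 8.85 and 9.41 TPM in HF against 4.74, 4.70 and 3.79 in LF (0.92 ± 0.15, adjusted p = 0.00724).

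The other 7 leading higher genes included Atf7, a transcription factor (0.72 ± 0.09), Xpo6, a nuclear export receptor for actin (0.88 ± 0.13), and Egfl7, which endothelial cells secrete (0.73 ± 0.10). Kank3 (0.79 ± 0.11), Rsrp1 (0.91 ± 0.13), Rad9b (0.83 ± 0.12) and Insl3 (0.96 ± 0.13) were the rest, with adjusted p of the 7 between 0.00403 and 0.00623. On the same strand, exons of Insl3 overlap Jak3 and those of Ramp2 overlap Vps25. Ntan1, Kank3, Egfl7 and Rad9b overlap Pdxdc1, Rps28, Agpat2 and Pptc7 on the opposite strand. The sources used here do not give whether quantification used strand, so all 6 values are uncertain to that extent. Among the higher genes with the largest differences, Cpne8, a calcium-binding copine, rose by 1.08 (± 0.21, adjusted p = 0.0121, 0.0543 without LF laparotomy 2), and Ddit4, a stress-induced inhibitor of mTORC1, by 1.0 (± 0.18, adjusted p = 0.0104). The call of Ddit4 ended, at 0.0671, without the 3 libraries that had Myh4 above 30 TPM. Pagr1b (1.0 ± 0.24) and Ccnk, cyclin K (0.97 ± 0.18), lost their calls without LF laparotomy 2 or other single libraries, at adjusted p up to 0.112 and 0.0544, and Pagr1b shares exon sequence with Mvp on the same strand.

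In GRCm38 (GENCODE M21) Lars2 (ENSMUSG00000035202) spans chromosome 9 from 123366927 to 123462666, Dlst (ENSMUSG00000004789) chromosome 12 from 85110833 to 85134845 and Gpam (ENSMUSG00000024978) chromosome 19 from 55067268 to 55127238. Ramp2 (ENSMUSG00000001240) lies on chromosome 11 from 101246028 to 101259546, Igf2 (ENSMUSG00000048583) on chromosome 7 from 142650766 to 142666816 and Lama4 (ENSMUSG00000019846) on chromosome 10 from 38965515 to 39110188. TPM values here sum over a gene's transcripts, so no exon or isoform is singled out.

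**Figure D2:**
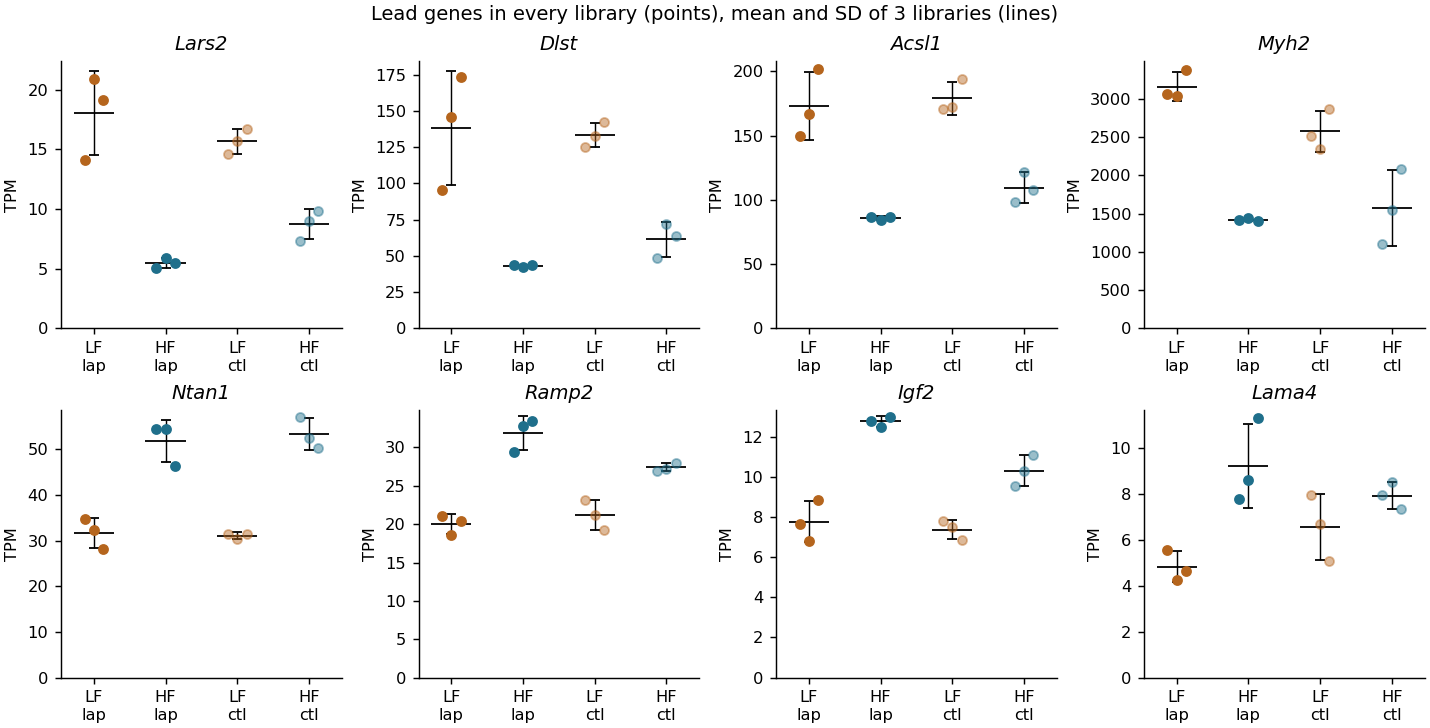
TPM of 8 genes (vertical, from 0) in each library of LF laparotomy, HF laparotomy, LF control and HF control (horizontal; points are libraries, lines the mean and SD of 3). The upper 4 genes, Lars2, Dlst, Acsl1 and Myh2, were lower in HF after laparotomy and the lower 4, Ntan1, Ramp2, Igf2 and Lama4, higher, with no overlap of the 2 laparotomy groups in any panel.

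Several lists of energy metabolism had at least 50% of their members called lower. Of 18 genes of the citric acid cycle 0 were higher and 10 lower in HF (55.6%, against 24.5% of all genes), and 7 were lower with size factors (38.9%, against 10.7%). The list's median was -0.23. After Dlst came Cs, citrate synthase, at 372, 449 and 444 TPM in LF and 263, 266 and 242 in HF (-0.52 ± 0.11, adjusted p = 0.00309). Ogdh, the subunit that works with Dlst, fell by 0.64 (± 0.14) and Sdha, the flavoprotein of complex II, by 0.47 (± 0.14). Dld, the third subunit of the complex that holds Dlst and Ogdh, fell by 0.49 (± 0.12) and Sucla2, a succinyl-CoA ligase subunit, by 0.46 (± 0.12), both chosen after their values were seen. All 3 subunits of 2-oxoglutarate dehydrogenase were thus lower, Dlst by the most.

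Among 35 genes of fatty acid uptake and oxidation 0 were higher and 18 lower (51.4%), with a median of -0.30. Size factors left 5 lower (14.3%, near the 10.7% of all genes) and put 1 higher. Without LF laparotomy 3, HF laparotomy 1 or HF laparotomy 2, 9 or 10 were lower. Besides Acsl1, the genes with the lowest p were Slc25a20, the mitochondrial carnitine carrier (-0.42 ± 0.12, adjusted p = 0.00599), Etfdh, which passes electrons from acyl-CoA dehydrogenases to ubiquinone (-0.51 ± 0.14, adjusted p = 0.00639), and Plin2, a lipid droplet coat protein (-0.61 ± 0.16, adjusted p = 0.00772). These 4 were also lower with size factors. In controls 1 member of the list was lower and 1 higher.

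Of 27 genes of mitochondrial biogenesis and dynamics 17 were lower (63%) and 1 higher, with a median of -0.22 (8 lower and 2 higher with size factors). Leaving out LF laparotomy 2 or 3, or HF laparotomy 1 or 2, left 5 to 7 lower. Opa1, which fuses inner membranes, was at 19.8, 31.7 and 35.4 TPM in LF and at 13.1, 12.6 and 13.2 in HF (-0.87 ± 0.18, adjusted p = 0.00403). Ppargc1a, the coactivator PGC-1α that drives mitochondrial gene expression, was at 5.30, 8.68 and 10.1 TPM in LF and at 3.59, 3.56 and 4.40 in HF (-0.67 ± 0.18, adjusted p = 0.00854). In both genes LF laparotomy 1 lay nearest to the HF libraries, without reaching them. Prkaa2, a catalytic subunit of AMP-activated kinase (-0.65 ± 0.17), and Dnm1l, which divides mitochondria (-0.43 ± 0.13), fell as well. The member that was higher was Polrmt, the mitochondrial RNA polymerase, named after its value was seen (0.68 ± 0.14, adjusted p = 0.0279, up to 0.0916 without 1 library).

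The nuclear subunits of complexes I, III and IV and of ATP synthase had medians above 0, while complex II, which also serves the citric acid cycle, had a median of -0.18 with 2 of 4 lower (1 with size factors). Of 36 nuclear genes of complex I 0 were higher and 2 lower, Ndufs1 and Ndufa10, at a median of 0.29, and with size factors 14 were higher (38.9%) and 0 lower. Neither Ndufs1 (-0.29 ± 0.11, adjusted p = 0.012, 0.105 with size factors) nor Ndufa10 (-0.32 ± 0.14, adjusted p = 0.0219, 0.135) held with size factors. The 14 nuclear genes of complex IV had a median of 0.32, with 0 calls as deposited and 6 higher with size factors. For complex III (9 genes) the median was 0.29 with 1 lower, Uqcrc2, a core subunit (-0.44 ± 0.10, adjusted p = 0.00403). ATP synthase (16 genes) stood at 0.26 with 1 higher and 1 lower (5 higher and 0 lower with size factors). The 13 mitochondrially encoded genes stood at 0.43 with none called. Of ATP synthase, Atp5b, the catalytic beta subunit, rose by 0.52 (± 0.10, adjusted p = 0.0308, up to 0.125 without 1 library). Atp5a1, the alpha subunit, fell by 0.24 (± 0.10, adjusted p = 0.0126, 0.216 with size factors).

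The 13 mitochondrially encoded genes made up 35.6% ± 0.294 of all TPM in HF laparotomy and 30.7% ± 3.79 in LF laparotomy (mean ± SD, n = 3 each). The difference of 4.88 percentage points had a two-sided exact permutation p = 0.1, the smallest that 3 against 3 can give. The gene mt-Atp6, an ATP synthase subunit encoded in the mitochondrion, may share reads with its near-identical copy Gm10925. It overlaps mt-Atp8 and mt-Co3 on the same strand. In mt-Atp6 the libraries read 42217, 42320 and 41528 TPM in HF and 39798, 36972 and 28888 in LF. LF laparotomy 3 was the low one. Without that library the difference was 2.71 percentage points. The same share was 34.2% ± 1.7 in HF control and 35% ± 4.55 in LF control. With near-identical nuclear copies of the 13 genes counted in, it was 47.4% ± 0.744 in HF laparotomy and 41.1% ± 5.18 in LF laparotomy. In controls it was then 43.9% ± 1.5 in HF and 43.9% ± 3.16 in LF. TPM sum to a fixed total, so every share is relative to the rest. With these genes and any others among the 10 most abundant taken out of the total, 465 genes were called higher and 1434 lower. The part of the mitochondrial share in the lower calls was not tested.

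Of 32 glycolysis and glycogen genes 16 were lower (50%) and 1 higher, at a median of -0.23 (6 lower and 3 higher with size factors, and 8 or 9 lower without LF laparotomy 2, LF laparotomy 3 or HF laparotomy 1). Lower were Pfkm, the muscle phosphofructokinase (-0.44 ± 0.11), and Ppp1r3a, which targets a phosphatase to glycogen (-0.61 ± 0.15). Their adjusted p were 0.00438 and 0.00623, and exons of Pfkm overlap Senp1 on the opposite strand. Ldha (-0.39 ± 0.11, adjusted p = 0.00623) was not called with size factors (0.0742). Hk2, hexokinase 2, which traps glucose in muscle, was the higher gene, at 189, 176 and 176 TPM in HF against 122, 125 and 143 in LF (0.66 ± 0.10, adjusted p = 0.0101). It was named after its value was seen.

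Of 29 genes of insulin and IGF signalling 14 were lower (48.3%) and 1, Igf2, higher, at a median of -0.23 (9 lower and 2 higher with size factors, and 6 to 8 lower without LF laparotomy 2 or 3 or HF laparotomy 1 or 2). Igf2r, the receptor that clears IGF2, fell by 0.56 (± 0.15), so that the factor and its scavenging receptor stood on opposite sides. Gsk3b, a kinase that restrains glycogen synthesis (-0.67 ± 0.18), and Rptor, the scaffold of mTORC1 (-0.48 ± 0.13), fell too, at adjusted p between 0.00685 and 0.00784. Irs1, an insulin receptor substrate, was chosen after its value was seen (-0.67 ± 0.21, adjusted p = 0.013). It lost its call without LF laparotomy 2 or LF laparotomy 3 (up to 0.0555), and exons of Gm9747 overlap it on the opposite strand.

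**Figure D3:**
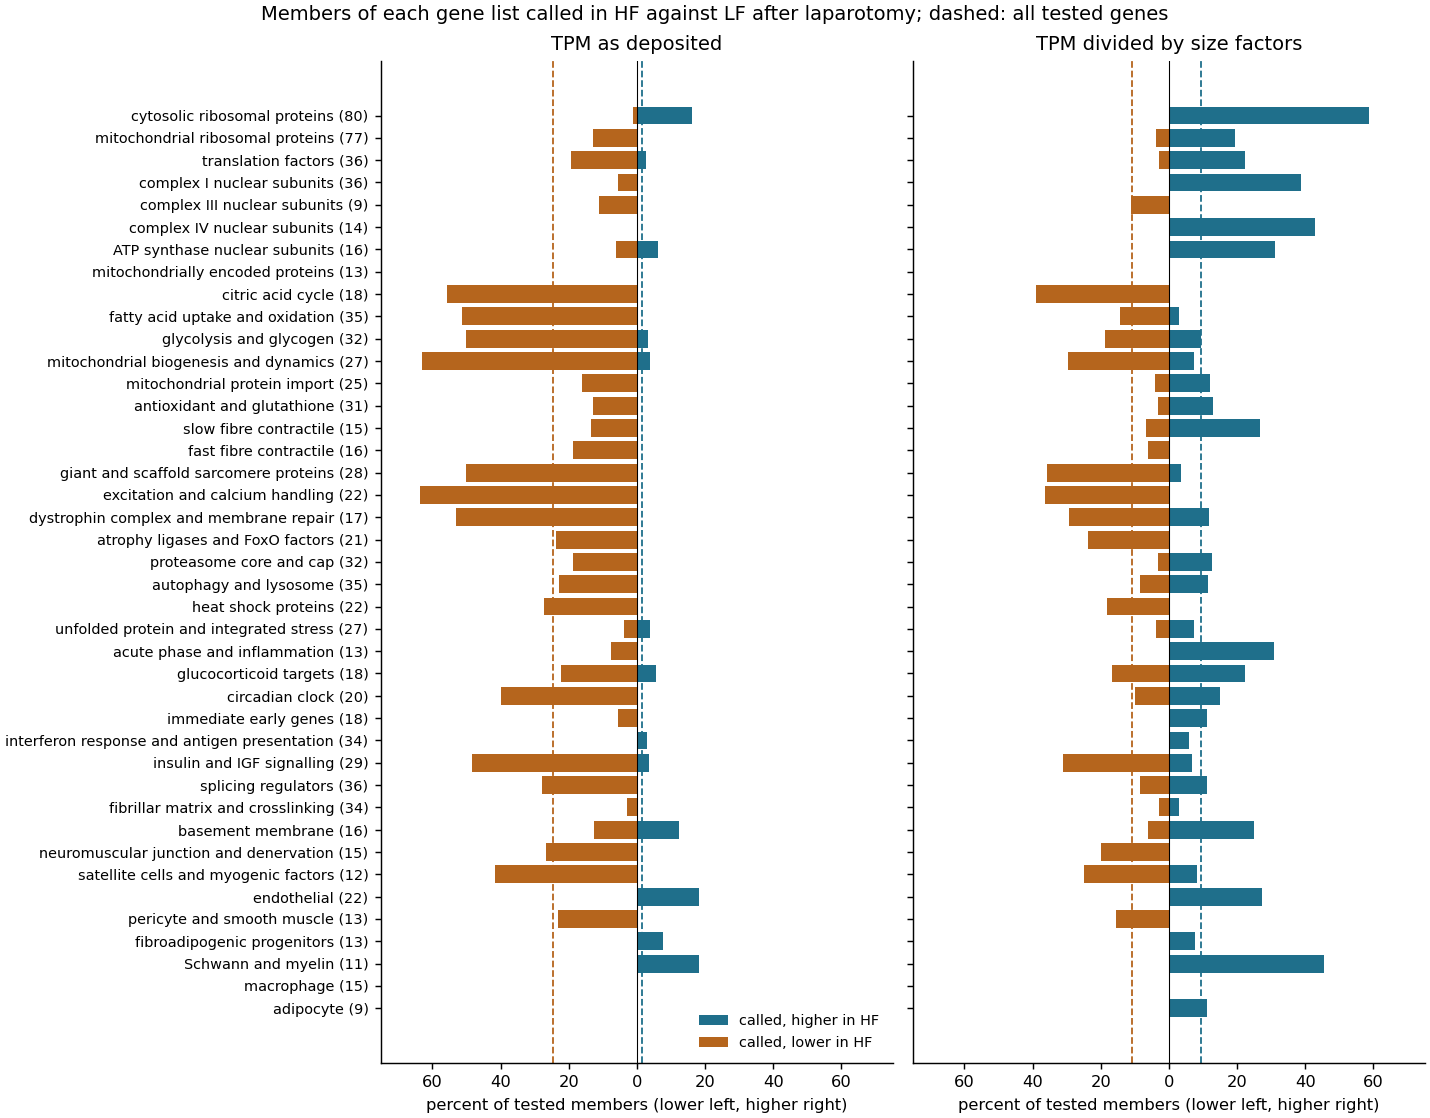
Percent of tested members of each list (rows, number tested in brackets) called lower (left) or higher (right) in HF after laparotomy, with TPM as deposited and with size factors. Dashed lines give the percentages over all tested genes: 24.5 and 1.50 as deposited, 10.7 and 9.31 with size factors.

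Of the 4 adult myosin heavy chains, the one called was Myh2, the myosin heavy chain of type 2A fibres. It stood at 3063, 3037 and 3381 TPM in LF and at 1416, 1439 and 1411 in HF, so the LF mean was 2.22 times the HF mean (-0.96 ± 0.17, adjusted p = 0.00302). Neither group spread by more than 192 TPM (SD). Myh7, the slow heavy chain, was at 2473, 3328 and 3183 TPM in LF and at 2179, 2280 and 2818 in HF, overlapping and not called (-0.11 ± 0.15, adjusted p = 0.154). Myh1 of type 2X fibres (0.08 ± 0.34) and Myh4 of type 2B fibres (0.34 ± 1.11) were not called either. Myh4, which marks the fast muscles that lie beside soleus, was at 90.8 TPM in HF laparotomy 2 and 62.4 in LF laparotomy 1, and at 3.06 to 5.93 in the other 4 laparotomy libraries.

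As a percent of the TPM of these 4 myosins, Myh2 made up 31.2% ± 2.56 in HF and 45.7% ± 2.27 in LF, and Myh7 52.9% ± 6.03 and 43.1% ± 4.88 (mean ± SD, n = 3 each). The exact permutation p, two-sided, was 0.1 for Myh2, the smallest possible here, and 0.2 for the difference of 9.82 percentage points in Myh7. Of Myh7 and Myh2 together, Myh7 held 62.9% ± 3.3 in HF and 48.5% ± 3.81 in LF (exact permutation p = 0.1). The Myh7 percentages of LF laparotomy 2 (48.5) and HF laparotomy 2 (47.1) crossed, and HF laparotomy 2 was also the library with the most Myh4. Without the 3 libraries with Myh4 above 30 TPM limma called 2651 genes.

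**Figure D4:**
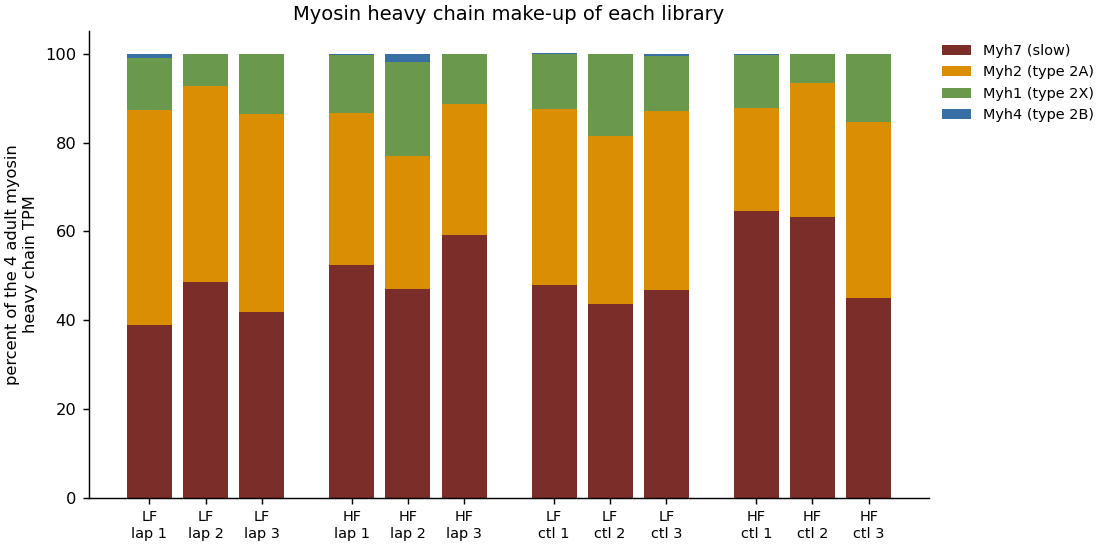
Percent of each adult myosin heavy chain among the 4, by library (stacked bars of summed TPM, axis from 0 to 100). Myh2, in orange, took 45.7% in LF laparotomy and 31.2% in HF laparotomy on average. The HF laparotomy bars differ among themselves in Myh7 and Myh1.

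Of 28 giant and scaffold proteins of the sarcomere 0 were higher and 14 lower (50%), at a median of -0.20 (10 lower and 1 higher with size factors). Myoz3, a Z-disc protein that binds calcineurin, was at 31.1, 56.6 and 49.3 TPM in LF and at 13.3, 9.56 and 17.1 in HF (-1.50 ± 0.25, adjusted p = 0.00302). Flnc, the actin crosslinker filamin C (-0.57 ± 0.10), and Actn2, the Z-disc actinin (-0.45 ± 0.11), fell with Filip1 (-0.80 ± 0.17). Xirp1, found where fibres are under strain (-0.79 ± 0.18), and Trim55, a ligase at the M-line (-0.60 ± 0.15), were chosen after their values were seen. Slow fibre contractile genes (15 tested, 2 lower) and fast ones (16 tested, 3 lower) were called lower in 13.3% and 18.8%, under the 24.5% of all genes. With size factors the slow list had 4 higher (26.7%, against 9.31%) and 1 lower, and the fast list 0 higher and 1 lower.

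Excitation and calcium handling held 14 lower and 0 higher of 22 genes (63.6%), at a median of -0.30 (8 lower with size factors, and 8 or 9 without LF laparotomy 2 or 3 or HF laparotomy 1 or 2). Srl, sarcalumenin of the sarcoplasmic reticulum, was at 448, 561 and 596 TPM in LF and at 321, 331 and 359 in HF (-0.46 ± 0.11, adjusted p = 0.00403). Jph1, which joins the reticulum to the T-tubule (-0.51 ± 0.13), and Cacna2d1, a calcium channel subunit (-0.47 ± 0.12), fell as well. Asph fell by 0.34 (± 0.09, adjusted p = 0.00403), a call that ended with the length and GC trend removed (0.0717). Scn4a, the sodium channel of the muscle action potential, had the largest difference of those called, at 38.7, 68.8 and 91.7 TPM in LF against 20.4, 24.0 and 27.5 in HF (-1.16 ± 0.26, adjusted p = 0.00609), and was chosen after its value was seen.

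The dystrophin complex and membrane repair list had 9 lower and 0 higher of 17 (52.9%), at a median of -0.16. With size factors 5 were lower and 2 higher, and 5 were lower without any one of the same 4 libraries. Sgcd, delta-sarcoglycan (-1.01 ± 0.22), Dag1, dystroglycan (-0.67 ± 0.15), Sspn, sarcospan (-0.49 ± 0.14), and Dtna, alpha-dystrobrevin (-0.38 ± 0.12), had the lowest p (adjusted p 0.00471 to 0.00799). Satellite cell and myogenic genes had 5 lower of 12 (2 without any one of those 4 libraries, 3 lower and 1 higher with size factors), among them Mef2d (-0.55 ± 0.16) and Mef2a (-0.39 ± 0.14), both transcription factors of muscle. At the neuromuscular junction 4 of 15 were lower (26.7%, near the 24.5% of all genes), and 2 without any one of those 4 libraries. With size factors 3 were lower (20%, against 10.7%). Lrp4, the agrin receptor, fell by 0.46 (± 0.14, adjusted p = 0.00928). Musk, the kinase it signals through, read 7.57, 12.6 and 18 TPM in LF and 5.24, 5.12 and 6.21 in HF (-0.81 ± 0.26, adjusted p = 0.018), but lost its call without any of 4 single laparotomy libraries (up to 0.0794).

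Of 80 genes of cytosolic ribosomal proteins 13 were higher in HF (16.2%, against 1.50% of all genes), 1 lower and 66 not called, at a median of 0.30, and with size factors 47 were higher (58.8%, against 9.31%) and 0 lower. The higher count was 2 to 9 as single libraries were left out: 2 without LF laparotomy 2 or HF laparotomy 2, 3 without HF laparotomy 1 and 6 without HF laparotomy 3. Rps20 of the small subunit was at 338, 375 and 303 TPM in HF and at 240, 246 and 258 in LF (0.64 ± 0.09, adjusted p = 0.00837, 0.0507 without the 3 libraries high in Myh4). Rpl31 rose by 0.58 (± 0.09, adjusted p = 0.0102), with exons overlapping Tbc1d8 on the opposite strand. Rpl38 rose by 0.50 (± 0.08, adjusted p = 0.0184, up to 0.0872 without 1 library). The member that was lower, Rpl10 (-0.47 ± 0.20, adjusted p = 0.0288), named after its value was seen, was not called with size factors (0.105).

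Shorter transcripts stood higher in HF over all genes: the median relative difference was 0.08 in the shortest quartile of transcript length and -0.09 in the longest (Spearman correlation across 10686 genes -0.211, and 0.144 with GC content; genes are not independent replicates). Ribosomal and respiratory chain genes are short. With a length and GC trend removed 35 of the 80 ribosomal genes were higher and 0 lower, at a median of 0.23, and the median of complex I was also 0.23. Without LF laparotomy 1 the lower counts of the lists that follow were larger, and without the other laparotomy libraries mostly smaller. Mitochondrial ribosomal proteins (77 genes) had 10 lower (13%, against 24.5% of all genes) and 0 higher as deposited, but 3 lower and 15 higher with size factors (5 to 21 lower as single libraries were left out). Of 36 translation factors 7 were lower (19.4%) and 1 higher (1 lower and 8 higher with size factors, 1 to 15 lower without single libraries), led by Eif5 (-0.90 ± 0.21, adjusted p = 0.00623), which helps select the start codon.

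Lists of protein breakdown had 18.8% to 23.8% of their members called lower as deposited, against 24.5% of all genes. Of 21 atrophy ligases and FoxO factors 5 were lower and 0 higher (23.8%), the same count with size factors, where 10.7% of all genes were lower (8 without LF laparotomy 1). They included Nedd4 (-0.66 ± 0.15), Usp19 (-0.46 ± 0.14), Fbxo30 (-0.55 ± 0.17) and Fbxo40 (-0.53 ± 0.17), ligases or, in Usp19, a deubiquitinase. The ligases best known from wasting, Fbxo32 (-0.19 ± 0.16, adjusted p = 0.0857) and Trim63 (-0.18 ± 0.20, adjusted p = 0.187), were not called. Fbxo32 was at 49.1 to 61.6 TPM in HF and 61.4 to 85.2 in LF, and Trim63 at 52.6 to 68.9 and 55.7 to 112, so both overlapped. Of 35 autophagy and lysosome genes 8 were lower (2 to 16 without single libraries; 3 lower and 4 higher with size factors), including Atg2b, a lipid transfer protein of autophagosome growth (-0.90 ± 0.18, overlapping Gskip on the opposite strand), and Fundc1, a mitophagy receptor (-0.36 ± 0.12). Proteasome subunits had 6 lower of 32 as deposited and, with size factors, 1 lower (3.12%) and 4 higher, and 0 to 13 lower without single libraries.

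Of 22 heat shock protein genes 6 were lower and 0 higher (27.3%, near the 24.5% of all genes), and 3 were lower without any one of the 4 libraries named above. With size factors 4 were lower (18.2%, against 10.7%). Among the 6 were the mitochondrial chaperones Hspa9 (-0.42 ± 0.12) and Hspd1 (-0.41 ± 0.13, overlapping Hspe1 on the opposite strand) and the small muscle chaperone Hspb7 (-0.45 ± 0.12). The circadian clock list had 8 lower of 20 (40%), and 1 to 4 lower without any one of those 4 libraries. With size factors 2 were lower (10%, near the 10.7% of all genes) and 3 higher. Clock, a subunit of the activating pair, was at 3.46, 4.24 and 5.39 TPM in LF and at 1.53, 2.06 and 1.78 in HF (-0.74 ± 0.13, adjusted p = 0.00302). Its partner Arntl (-0.58 ± 0.18, adjusted p = 0.0123) was not called with size factors (0.0551). Per2, which represses that pair, was chosen after its value was seen and stood on the other side without passing (0.57 ± 0.15, adjusted p = 0.0747). Of 18 glucocorticoid targets 4 were lower (22.2%, near the 24.5% of all genes), such as Klf9 (-0.48 ± 0.15, adjusted p = 0.00989), and 1 higher, Ddit4. With size factors 3 were lower and 4 higher. Splicing regulators had 10 lower of 36 (27.8%, also near that share), led by Hnrnpul1 (-0.74 ± 0.17), and 3 lower and 4 higher with size factors (1 or 2 lower without any one of those 4 libraries).

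Of 22 endothelial genes 4 were higher in HF (18.2%, against 1.50% of all genes), 0 lower and 18 not called, at a median of 0.39. With size factors 6 were higher (27.3%, against 9.31%). Among those not called, Cdh5 read 32.5, 36.1 and 39.6 TPM in HF and 45.8, 29 and 30.1 in LF. Kdr, also overlapping, read 13.4, 14.2 and 15.6 against 19.8, 13.2 and 13.5. Both were chosen after their values were seen. Ly6c1, a surface antigen of muscle endothelium, was at 149, 242 and 225 TPM in HF and at 131, 117 and 114 in LF (0.93 ± 0.16, adjusted p = 0.00884), and its near-identical copy Ly6c2 may share its reads. Sox18, a vascular transcription factor (0.79 ± 0.18, adjusted p = 0.0279), and Ecscr (0.66 ± 0.13, adjusted p = 0.0232) joined Egfl7 but lost their calls when replicate 2 or 3 of either laparotomy group was left out (up to 0.107 and 0.0896). The count of 4 then became 2. The summed level of the 22 markers overlapped, at 711 to 942 TPM in HF and 602 to 781 in LF. Pericyte and smooth muscle genes had 3 lower of 13 (23.1%, near the 24.5% of all genes), first Cspg4, the NG2 proteoglycan (-0.63 ± 0.12, adjusted p = 0.00302). With size factors 2 were lower (15.4%, against 10.7%).

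Of 16 basement membrane genes 2 were higher (12.5%, against 1.50% of all genes) and 2 lower (12.5%, against 24.5%). With size factors 4 were higher (25%) and 1 lower, and after removal of a length and GC trend 5 and 1. Lama5, another laminin chain, was at 11.1, 14.9 and 11.1 TPM in HF and at 8.14, 6.67 and 8.16 in LF (0.81 ± 0.14, adjusted p = 0.0102), beside Lama4. The laminin receptor of muscle fibres, Itga7, fell by 0.54 (± 0.15, adjusted p = 0.00802). Itgb1, its partner chain (-0.17 ± 0.11, adjusted p = 0.032), was not called with size factors (0.403). Fibrillar matrix genes showed 1 call, lower, among 34 (1 higher and 1 lower with size factors).

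Schwann cell and myelin genes had the highest median of the lists, 0.81, with 2 of 11 higher (5 with size factors) and 0 lower. The summed level of the list was 90.4 to 276 TPM in HF and 75.1 to 90.1 in LF, and the median ran from 0.41 to 0.99 as single libraries were left out. HF laparotomy 3 held the highest sum. Cldn19 (0.81 ± 0.21, adjusted p = 0.0417), a myelin claudin, kept its call in 3 of the 12 fits that left out 1 library. Prx, periaxin, missed the threshold (0.99 ± 0.28, adjusted p = 0.0512) and was named after its value was seen.

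Interferon response and antigen presentation genes stood at a median of 0.59, with 1 of 34 higher (2.94%, near the 1.50% of all genes) and 0 lower. With size factors 2 were higher (5.88%, under the 9.31% of all genes). Ifitm2, an interferon-induced membrane protein, was at 48.6, 68.7 and 82.2 TPM in HF and at 49.3, 45 and 45.6 in LF (0.66 ± 0.15, adjusted p = 0.04, up to 0.139 without 1 library). Its groups overlapped at the lowest HF library. H2-K1, a class I antigen gene, read 67.1, 75.4 and 135 TPM in HF and 62.1, 74.1 and 42.6 in LF without passing (0.79 ± 0.27, adjusted p = 0.119), and was named after its value was seen. HF laparotomy 3 held the highest value. The list's median lay between 0.28 and 0.85 without single libraries. Acute phase and inflammation genes had a median of 0.49 with 0 higher and 1 lower of 13 as deposited and 4 higher (30.8%, against 9.31%) and 0 lower with size factors. The lower gene was Stat3 (-0.19 ± 0.13, adjusted p = 0.0457, 0.279 with size factors, overlapping Stat5a on the opposite strand).

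Leukocyte, fat and tendon markers held no call as deposited. Of 15 macrophage genes 0 were called (median 0.30), and their sum was 60.3 to 214 TPM in HF and 65.2 to 154 in LF. Neutrophil markers summed to 6.20 to 22.7 TPM in HF and 6.90 to 15.9 in LF, with Elane at 0, and lymphocyte markers to 3.45 to 10.9 and 2.96 to 5.76. The 9 tested adipocyte genes had 0 calls (1 higher with size factors) at a median of 0.58, with overlapping sums of 2681 to 3962 TPM in HF and 3691 to 3993 in LF. Car3 alone read 1515, 2405 and 2575 TPM in HF and 2677, 2915 and 2030 in LF, so the sums say little of the low genes. Cfd read 3.07, 35.2 and 37.9 TPM in HF and 9.63, 11.3 and 11.7 in LF. Adipoq read 0.429, 5.66 and 8.79 against 1.17, 2.54 and 2.35. These genes were chosen after their values were seen. Erythroid markers summed to 1399 to 3732 TPM in HF and 1000 to 2161 in LF, with 1 of 7 tested called lower, Bpgm (0 with size factors). The 8 tendon and cartilage genes had 0 calls. Fibroadipogenic progenitors had 1 higher of 13, Ly6a (0.84 ± 0.22, adjusted p = 0.0491, up to 0.194 without 1 library). Of 5 tested genes of hind limb and neighbouring muscle identity 2 were lower (1 with size factors). The summed TPM of the list did not overlap, at 87.8 to 95.9 in HF and 106 to 156 in LF. Of all tested genes, 40.5% did not overlap either. Tbx15 alone, chosen after its value was seen, read 59.3, 58 and 68 TPM in HF and 70.5, 74.8 and 118 in LF. The sum thus says little of the low genes. Hoxc10 (-0.11 ± 0.10, adjusted p = 0.0462) was not called with size factors (0.625). Hoxa10, a homeobox factor of hind limb position, read 5.52, 6.05 and 6.17 TPM in HF and 8.64, 9.64 and 8.96 in LF (-0.35 ± 0.11, adjusted p = 0.00804). The part of these other cells in the differences above was not tested.

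The windows before the starts of the genes called higher were searched for 5 motifs on both strands (RefSeq, GRCm38.p6, 250 bases before to 50 after each start). The interferon-stimulated response element, spelled GAAA, any 2 bases, GAAA, was found in 12 of 110 higher genes with a window (10.9%), in 2.64% of lower genes and in 3.57% of 8294 tested genes. It was in 3.44% of all 32851 windows, and in 4.59% of the genes higher with size factors. Of the 4 matches in genes named here, that of Igf2 lies after the start. The other 3 lie before it and are shown 5′ to 3′ on the strand of the gene with the match in capitals, so that the flanks can be compared. Rpl38 and Ifitm2 came from the ribosomal and interferon lists and Xpo6 from the leading genes. Their windows are chr11:114668454-114668513 (plus strand), chr7:140955973-140956032 (minus) and chr7:126200620-126200679 (minus).
Rpl38: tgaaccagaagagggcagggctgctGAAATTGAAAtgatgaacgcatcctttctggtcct
Ifitm2: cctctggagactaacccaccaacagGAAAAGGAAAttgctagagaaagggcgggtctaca
Xpo6: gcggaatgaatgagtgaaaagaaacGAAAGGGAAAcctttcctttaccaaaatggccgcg

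The match begins 101 bases before the start in Rpl38, 46 in Ifitm2 and 153 in Xpo6. A match is a stretch of letters, not a site shown to be bound. With TPM as deposited the other 4 motifs were about as frequent in higher genes as in all tested genes or had too few matches to compare. CCGGAAG, the ETS core, was in 20.9% of higher, 20.1% of lower and 21.4% of all tested genes, and CACGTG, the E-box of the clock, in 11.8%, 11.8% and 12.3%. GCGCAT followed directly by GCGC, of Nrf1, was in 0% and 2.88% against 2.51%, and TCAAGGTCA of estrogen-related receptors in 0.909% and 0.146% against 0.313%. With size factors CCGGAAG was in 25.3% of higher and 18.4% of lower genes, and CACGTG in 12.5% and 11.5%.

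Pseudogenes had the largest differences of all, and are outside the rule that named genes, so those given were chosen after their values were seen. Of 217 tested pseudogenes 10 were higher (4.61%, against 1.50% of all genes) and 32 lower (14.7%, against 24.5%), at a median of 0.15. Those given next were all lower in HF. Gm5537, a processed pseudogene with Pgk1 as near-identical tested copy, was at 10.8, 26.6 and 44.3 TPM in LF and listed at 0 in every HF laparotomy and HF control library, while LF control read 24.6, 13 and 32.9. Gm8325, with Ube2v1 as its tested copy, was at 18.9, 54.8 and 38.4 TPM in LF and at 0, 0 and 0.154 in HF (-4.88 ± 0.26, adjusted p = 6.81e-07), and was listed at 0 in all HF controls against 51.6, 41.8 and 50.2 in LF controls. Gm10171, a copy of Timm23, was at 9.37, 16.5 and 9.92 TPM in LF and listed at 0 in the HF laparotomy and HF control libraries. Its LF controls read 1.32, 1.92 and 17.5 TPM, so 2 of them lay near the HF values. An exact 0 can be a failed estimate where reads are shared with a parent gene, so no fold is given against it.

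Low values in HF were also seen in 2 protein-coding genes. These 2, and Gm17428 below, were chosen after their values were seen. Arhgap5, a GTPase-activating protein, was at 2.09, 4.38 and 5.73 TPM in LF and at 0.419, 0.698 and 0.187 in HF (-1.57 ± 0.26, adjusted p = 0.00302). Tfdp1, a dimer partner of E2F factors, was at 5.31, 6.76 and 9.22 TPM in LF and at 2.37e-09, 0.562 and 3.02 in HF (-1.91 ± 0.48, adjusted p = 0.011, 0.0536 with no filter). Its value of 2.37e-09 TPM is in effect 0 and, like an exact 0, may be a failed estimate. Among predicted genes Gm17428 was higher after laparotomy, at 20.9, 28.6 and 27.7 TPM in HF and 8.87, 11.3 and 3.25 in LF (1.92 ± 0.37, adjusted p = 0.0093). In controls it did not separate the groups, at 6.05, 3.07 and 6.07 TPM in HF and 7.46, 4.19 and 2.66 in LF. The direct test of laparotomy against control differences, given below, passed for no gene. Gm17428 spans chromosome 14 from 54976933 to 54977025 on the plus strand. That lies within the span of Myh7 on the minus strand, from 54970684 to 54994626, so its value is uncertain to that extent.

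The same HF minus LF difference was measured in the 6 control libraries, which share no library with the laparotomy comparison but share the estimate of the spread. There limma called 1127 genes (10.5%), 262 higher (2.44%) and 865 lower (8.04%). That count hung on single libraries: it was 735, 2 and 48 without LF control 1, 2 and 3, 47 and 66 without HF control 1 and 3, 2080 and 2054 without LF laparotomy 1 and 3, and 579 without HF laparotomy 2. Called in both, in the same direction, were 869 genes, which is 31.1% of the laparotomy calls and 77.1% of the control calls, and 0 were called in opposite directions. Of the genes called after laparotomy 98.9% had the same sign in controls. Their median absolute difference was 0.506 after laparotomy and 0.369 in controls, the first being the one by which they were chosen. Across the 10757 genes the 2 differences had a Pearson correlation of 0.77 and a Spearman correlation of 0.806, as a description.

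All 12 leading lower genes and 8 of the 12 leading higher genes were called in controls too. Lars2 was at 14.6, 15.7 and 16.7 TPM in LF control and at 7.34, 9.02 and 9.81 in HF control (-0.67), a smaller difference than after surgery. Ribosomal proteins were higher in 48 of 80 in controls, with 0 lower. For fatty acid genes 18 were lower after laparotomy and 1 in controls, and for citric acid cycle genes 10 and 8. These counts do not show that the differences themselves differ.

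**Figure D5:**
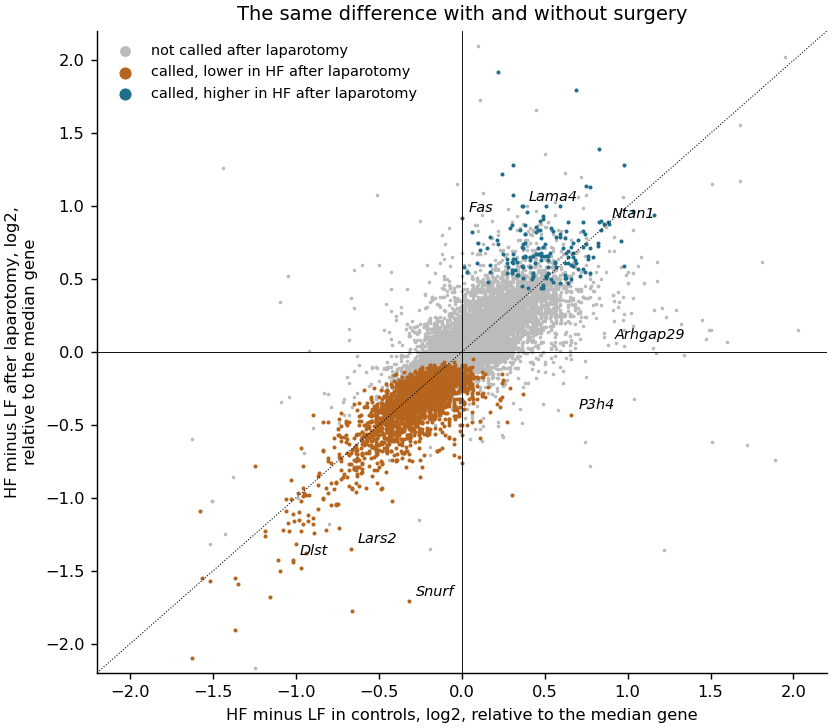
HF minus LF difference after laparotomy (vertical) against the same difference in controls (horizontal), both log2 relative to the median gene, 1 point per tested gene; 14 genes lie outside the plotted range. Points follow the dotted line of equal differences, and Fas lies at 0.00 in controls and 0.92 after laparotomy.

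Tested directly, the difference between the laparotomy and control contrasts passed for 0 of 10757 genes (0%) by limma. At an unadjusted p under 0.05 there were 331 genes (3.08%), and the smallest adjusted p was 0.685. That belonged to Arhgap29, a GTPase-activating protein of endothelium, at 0.05 ± 0.12 after laparotomy and 0.88 in controls (difference -0.82 ± 0.17). P3h4, which modifies collagen, was at -0.43 ± 0.17 after laparotomy and 0.66 in controls (difference -1.08 ± 0.24, limma adjusted p = 1). Foxs1 (-0.62 ± 0.17), Nrarp (-0.54 ± 0.15) and Proser3 (1.10 ± 0.25) were next. In Fas the HF libraries exceeded LF after surgery but not in controls, with 5.27, 4.76 and 4.82 TPM in HF control against 5.25, 5.68 and 5.23 in LF control, and the test of that difference gave an unadjusted p = 0.00144 and an adjusted p = 1. Array weights gave 55 genes, no filter on low values 2 and leaving out LF control 3 gave 1.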

How the data were processed

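Soleus RNA was sequenced in 12 libraries (QIAzol and column extraction, stranded Illumina kit with polyA pull-down, per the labels' protocols). The authors deposited gene-level TPM, and kallisto, DESeq2 and GRCm38 stand in the submitters' processing notes, where neither version nor role is given. The 4 groups were taken from the treatment and condition labels. Of 30323 identifiers 29857 matched a GENCODE M21 symbol.

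From these values log2(TPM + 1) of 10757 genes (mean TPM 1 or more) was fitted with limma 3.58.1 (R 4.3.3): 1 mean per group, mean-variance trend, 8 residual degrees of freedom, two-sided tests, Benjamini-Hochberg adjustment over all genes of a contrast, threshold 0.05. Lists of genes got no set test: they are described by counts and medians. Near-identical copies were searched with blastn 2.17.0 (95% identity, 80% cover) and exon overlaps with bedtools 2.31.1. The members and lists were chosen with earlier results of these data known.

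Named genes were the 12 higher and 12 lower with the smallest p whose groups did not overlap, the 6 and 6 with the largest difference at 5 TPM or more, up to 4 called members of each list (2 members where none was called), Myh7, Myh2, Myh1, Myh4, Ppargc1a, Fbxo32, Trim63, Lars2 and Dlst, and the 5 smallest p of the interaction, without predicted, Riken and pseudogene symbols. The fit was repeated with pseudocounts of 0.5 and 0.1, without a filter, with a minimum of 5 TPM, size factors, quantile normalization, rescaled TPM, robust eBayes, array weights, a threshold of 0.10, only the 6 laparotomy libraries, a fast muscle covariate, a length and GC trend removed, no libraries with Myh4 above 30 TPM, and each library left out. Tested on 5 simulated sets with 200 of 10757 genes changed in HF laparotomy, the fit found 34.4% of changes of 0.5 log2 and 86.4% of 1 log2. Of its calls there 3.97% were false. The simulated noise was normal and independent between genes, changes went equally both ways, and no library was shifted in scale. The calls reported here were mostly in 1 direction and moved with the scaling, so these rates do not carry over to them. Some named genes are left out of the text and not reported here.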

Additional observations from a re-analysis of the deposited data

How the results depend on the processing

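The 2796 calls after laparotomy became 1487 without a filter on low values, 7538 with array weights (whose estimation stopped before convergence) and 1362 in a fit of only the 6 laparotomy libraries, and ran from 1048 (without LF laparotomy 2) to 4157 (without LF laparotomy 1) as single libraries were left out. They were 1144 without LF laparotomy 3, 1105 without HF laparotomy 1 and 1078 without HF laparotomy 2. The 1127 control calls became 121 without a filter, 1934 with size factors, 2082 with quantile normalization, 2238 on rescaled TPM, 3411 with array weights, 2452 at a threshold of 0.10 and 163 without the libraries with Myh4 above 30 TPM, and ran from 2 (without LF control 2) to 2080 (without LF laparotomy 1). The interaction count of 0 became 2 without a filter and 55 with array weights, and ran from 0 to 1 without single libraries. The causes were not tested. Among named genes 2 differences changed sign: Mybpc1 (0.02 with quantile normalization) and Ighm (-0.41 with array weights). No paired analysis was possible because the labels give no replicate numbers shared between groups. TPM keep no depth, so no counting error could be set beside any value.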
